A study of Macaca fascicularis with 132 samples.

Results

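Mononuclear cells from the blood of the cynomolgus macaque, Macaca fascicularis, were kept in culture without cytokine, and the RNA of the cells at 12 h was compared with that at 6 h. The series holds 11 groups of 12 messenger RNA libraries each, from 4 animals, and 24 of these libraries are described here, 12 at 12 h and 12 at 6 h. The 12 h and 6 h control groups each hold 3 numbered libraries from each of 4 animals, the females 38142 and 38155 and the males 38147 and 38157. These cultures carried a dose of 0 ng/ml, and no other agent is named in the labels. The other libraries, used below for comparison, come from the same animals. They are cultures given 40 ng/ml of IL-15/IL-15Ra, a heterodimer of the cytokine and the alpha chain of its receptor, sampled at 2, 6, 12, 24 and 48 h, and control cells at 0, 2, 24 and 48 h. No label gives the age of the animals, the culture medium or the cell density. The series' design text speaks of 6 animals, and the labels analysed here name 4.

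Mononuclear cells of the blood are a mixture of T cells, B cells, natural killer cells and monocytes. Cells taken from blood and put in culture are known to change their transcripts with time even when nothing is added, as monocytes attach to the plastic and genes induced by handling are switched on and off again. A control culture at a matched time is therefore the usual reference for a cytokine, and the difference between 12 h and 6 h of control culture shows how far that reference itself moved. IL-15, which is carried on the IL-15 receptor alpha chain, is known to maintain natural killer cells and CD8 T cells.

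The gene tables carry Ensembl gene IDs with no symbols, and 0 of the IDs matched a symbol in the annotation at hand, so genes are described below as groups and by 4 IDs. Whether the cells carry the markers of the labelled mixture was not tested for the same reason. In RNA from a mixture of cells, a change in the number of cells of a type and a change in RNA per cell cannot be told apart. The libraries held 17368210 to 87944372 counts at 12 h and 20431703 to 47509688 at 6 h. The top 20 genes of a library held 8.20% to 9.97% of its counts at 12 h and 8.14% to 9.15% at 6 h. No library of either time stood apart from its sister libraries of the same animal, although 3 of the other libraries of the series did. Sister libraries differed beyond sampling noise, with a chi-square per degree of freedom of at least 3.57 over 24 pairs, so none was taken for a copy. Their counts were summed, which gave 8 sums of 69264286 to 126025607 counts, 1 for each animal and time. The deepest library, the third of animal 38155 at 12 h, made up 69.8% of its sum. Thinned to the lowest of these totals, the sums held 20436 to 21497 genes with a count at 12 h and 20648 to 21392 at 6 h, ranges that overlap.

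Between 12 h and 6 h of control culture, 765 genes were higher at 12 h and 618 were lower. That was 4.2% and 3.4% of the 18197 genes tested by edgeR's quasi-likelihood test with a term for the animal, at a Benjamini-Hochberg adjusted p under 0.05. The median change of the 765 genes was a log2 fold change of 0.71, or 1.64-fold, and their interquartile range was 0.47 to 1.23. The 618 lower genes had a median log2 fold change of -0.53, with an interquartile range of -1.11 to -0.35. A log2 fold change of 1 or more in size was found for 240 of the higher genes, or 31.4%, and for 178 of the lower genes, or 28.8%. A size of 2 or more was found for 75 higher and 40 lower genes. Over all genes tested, the median log2 fold change was 0.0016, a value that the scaling itself holds near 0. Higher genes made up 55.3% of the calls. With upper quartile scaling the calls were 916 higher and 450 lower, so that the higher ones made up 67.1%.

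**Figure D1:**
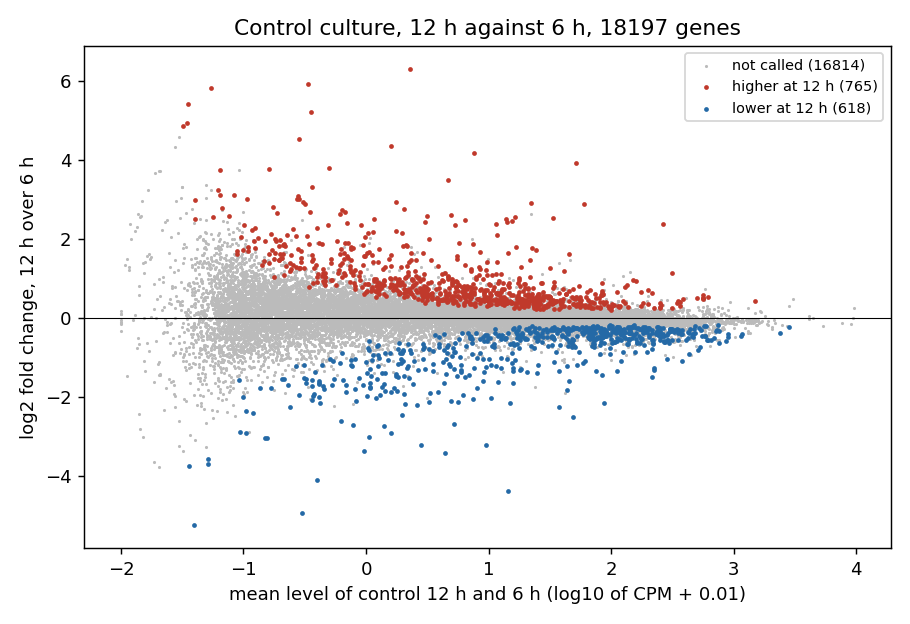
Log2 fold change at 12 h over 6 h of control culture (vertical axis) against the mean level of the gene at both times (horizontal axis, log10 of CPM + 0.01), 1 point for each of 18197 genes. The 765 higher genes (red) spread over low and middle levels, and many of the 618 lower genes (blue) lie close below 0 at high levels.

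The genes that rose and those that fell lay at different levels. The 765 higher genes had a median of 7.71 CPM (counts scaled to the size of the library) at 12 h, against 4.49 CPM at 6 h, and the 618 lower genes had a median of 34.98 CPM at 12 h, against 49.5 CPM at 6 h. All genes tested had medians of 7.94 CPM at 12 h and 7.64 CPM at 6 h. Of the 2230 genes with a mean over 100 CPM, 8.34% fell and 1.84% rose. Of the 2576 genes between 1 and 5 CPM, 3.57% fell and 7.45% rose. Under this scaling, the genes over 100 CPM thus held more calls for lower than for higher levels, and the genes at 1 to 5 CPM held more calls for higher levels. Under 1 CPM, 1.07% of 5716 genes fell and 2.78% rose. The balance among abundant genes depended on the fit. Of the genes with at least 5 CPM at 12 h or 6 h, 442 rose and 482 fell in the fit of all genes, and 585 rose and 367 fell, 61.4% higher, when only such genes were fitted and scaled.

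Taken as a share of all counts, the higher genes held 2.76% ± 0.292 at 12 h and 1.80% ± 0.234 at 6 h (SD, n = 4 animals each). The lower genes held 6.24% ± 0.431 at 12 h and 8.02% ± 0.617 at 6 h. These shares describe the size of groups that were chosen by this same difference. At 12 h, 4 of the lower genes (0.65%, against 0.38% of all genes tested) had no more than 3 counts over the 4 sums together. At 6 h, 9 of the higher genes (1.18%, against 0.46% of all) had no more than 3. Nearly all genes called thus had counts at both times, as did nearly all genes tested.

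Most of the genes called changed in the same direction in all animals. The sign of the change was the same in 4 of 4 animals for 743 of the 765 higher genes, or 97.1%, for 605 of the 618 lower genes, or 97.9%, and for 36.5% of all genes tested. In animals 38142, 38147, 38155 and 38157 in turn, the higher genes had median log2 changes of 0.67, 0.72, 0.64 and 0.69. The lower genes had median log2 changes of -0.48, -0.57, -0.53 and -0.49. The calls are selected for such uniformity, so these values cannot show whether 1 animal carried the groups. Leaving out 1 animal left 3 pairs and fewer calls. The counts were 354 higher and 237 lower without 38142, 435 and 317 without 38147, 441 and 341 without 38155, and 398 and 377 without 38157. Of the 1383 genes called with all animals, 567 were called again without 38142, 704 without 38147, 733 without 38155 and 691 without 38157. None of the 1383 changed sign where tested in these fits. The fits reuse the same libraries, and nearly all of these genes had the same sign in 4 of 4 animals beforehand. The kept signs were thus close to fixed by the choice of genes. Without the term for the animal, 80 genes were higher and 45 were lower.

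Some genes moved by different amounts in different animals. With the libraries entered singly, the change between 12 h and 6 h differed among the animals for 1551 genes, or 8.52% of those tested, by edgeR's quasi-likelihood test at an adjusted p under 0.05. Among the 765 higher genes 95 did so, or 12.4%, and among the 618 lower genes 21.2%. The animal farthest from the others was 38157 for 698 of the 1551 genes, 38147 for 500, 38142 for 205 and 38155 for 148. Both males thus led this list, but the labels do not say whether libraries of an animal are separate cultures, and the p-values here measure only the spread between those libraries. A direct test of females against males, 2 animals each, called 0 of 16248 genes by edgeR and 0 of 18197 by limma. At an unadjusted p under 0.05 there were 802 of the 16248 genes by edgeR and 1011 of the 18197 by limma.

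Library names hold unexplained tokens, which were not spread evenly over the times. The token Lib1 GL66 occurred in 4 libraries at 12 h and 1 at 6 h, and Lib1 GL75 in 5 at 12 h and 6 at 6 h. Within the Lib1 GL75 libraries, which give both times for 3 animals, 331 genes were higher and 344 were lower. In a second fit on all other libraries, 276 genes were called higher and 189 lower. That fit held no 6 h control library of animal 38147. It held the Lib1 GL66 libraries, 4 at 12 h and 1 at 6 h, and shares animals with the Lib1 GL75 libraries. The Lib1 GL75 libraries, which share no library with that fit, had the same direction for 275 of the 276 higher genes and for 189 of the 189 lower genes, against 73.9% of the genes not called.

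The step between 12 h and 6 h was small beside the earlier steps of the same control cultures. At 2 h against 0 h the calls were 4451 higher genes (24.5%) and 5172 lower ones (28.4%), and at 6 h against 2 h they were 4884 higher genes (26.8%) and 4757 lower ones (26.1%). The later steps gave fewer calls. At 24 h against 12 h they were 459 higher (2.52%) and 278 lower (1.53%), 737 in all, and at 48 h against 24 h 386 higher (2.12%) and 290 lower (1.59%), 676 in all. Successive steps share a group of sums and were not tested against each other. Leaving out 1 animal cut these later counts. The 737 genes became 256 without animal 38142, 350 without 38147, 461 without 38155 and 481 without 38157. The 676 genes became 188 without 38142, 226 without 38147, 523 without 38155 and 600 without 38157.

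A measure that needs no threshold also put both earlier steps above the 12 h step, but not the later steps below it. Over the 10101 genes of at least 5 CPM, the root mean square log2 change was 0.825 ± 0.0231 for 2 h over 0 h and 0.759 ± 0.0146 for 6 h over 2 h (SD, n = 4 animals). It was 0.376 ± 0.017 for 12 h over 6 h, with 0.372, 0.390, 0.353 and 0.387 in animals 38142, 38147, 38155 and 38157. Each animal thus changed less between 12 h and 6 h than any animal did in either earlier step. The values were 0.397 ± 0.0248 for 24 h over 12 h and 0.405 ± 0.0661 for 48 h over 24 h, and their ranges overlap that of the 12 h step. These steps last 2, 4, 6, 12 and 24 h, and the measure includes the noise of the sums, so it is no rate. Across these genes, the changes of 2 animals between 12 h and 6 h correlated with a Pearson r of 0.564 to 0.747 (median 0.653 over the pairs of animals). The median r was 0.908 for the step at 2 h.

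**Figure D2:**
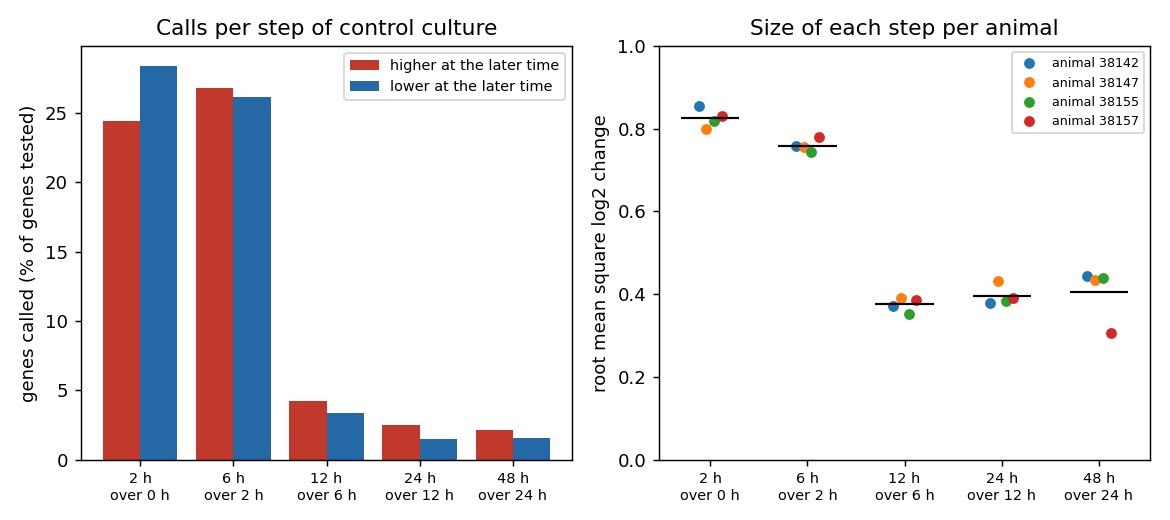
Left, genes called higher (red) and lower (blue) at the later time of each step of control culture, as a share of the genes tested. Right, root mean square log2 change of each step over 10101 genes for each animal (points) with the mean of 4 animals (line); the step of 12 h over 6 h sits near 0.376, the step of 2 h over 0 h near 0.825.

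Many of the genes higher at 12 h than at 6 h were lower at 2 h than at 0 h, and most were higher at 24 h than at 2 h. Of the 765 genes, 411 (53.7%) fell and 82 (10.7%) rose at 2 h against 0 h, where 28.4% and 24.5% of all genes tested did so. That contrast shares no library with 12 h or 6 h. At 24 h against 2 h, which shares none either, 587 of the 765 genes (76.7%) rose and 49 (6.41%) fell. Of all genes tested, 35.3% rose and 29.2% fell there. A fall at 2 h followed by a rise across 24 h was found for 346 of the 765 genes, or 45.2%, and for 19.6% of all genes tested. Both of these contrasts use the 2 h sums, so the pattern is given as a description. A further 201 (26.3%, against 13.2% of all) passed no test at 2 h and rose afterwards. Leaving out an animal, using the rhesus gene table, RLE scaling or leaving out the deepest library gave between 47.4% and 54.99% for the share that fell at 2 h. The share that rose at 24 h against 2 h then ran between 73.4% and 78.8%. Among the 240 higher genes with a log2 change of 1 or more, 67 (27.9%) fell and 23 (9.58%) rose at 2 h against 0 h. The share that fell was near that of all genes, and the share that rose was below it. The log2 change there was negative for 70.8% of the 240 genes and for 56.7% of all genes tested. At 0 h the 240 genes had a median of 0.53 CPM, against 7.33 CPM for all genes tested. At 24 h against 2 h, 196 of the 240 (81.7%) rose.

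The genes lower at 12 h than at 6 h had another time course. Of the 618 genes, 34.95% had risen and 20.6% had fallen at 2 h against 0 h, where 24.5% and 28.4% of all genes tested did so. At 24 h against 2 h, 475 (76.9%) fell and 61 (9.87%) rose, where 29.2% and 35.3% of all genes tested did so. A rise at 2 h with a fall across 24 h was found for 196 of them, or 31.7%, against 15.9% of all, and 228 (36.9%, against 11.2%) passed no test at 2 h and fell afterwards. Under the same alternatives, between 29.02% and 36.3% had risen at 2 h, and between 75.1% and 84.8% fell at 24 h against 2 h. Among the 178 lower genes with a log2 change of 1 or more in size, 17.98% had risen and 10.7% had fallen at 2 h against 0 h. Both shares were below those of all genes tested. At 0 h these 178 genes had a median of 5.47 CPM, against 44.6 CPM for the 618 genes. At 24 h against 2 h, 86.5% of the 178 fell. Across the last step, 48 h against 24 h, few genes of either group were called. The share that moved on in the same direction was above that of all genes tested. Of the 765 genes 50 (6.54%) rose and 9 fell, and of the 618 genes 59 (9.55%) fell and 8 rose, where 2.12% and 1.59% of all genes rose and fell.

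At 24 and 48 h both groups lay, at the median, further from their 6 h level than at 12 h. At 0, 2, 12, 24 and 48 h in turn, the higher genes had median log2 levels, set against control 6 h, of 0.50, 0.02, 0.70, 0.91 and 1.01. The lower genes had medians of 0.07, 0.32, -0.52, -0.72 and -0.85. These levels share the 6 h sums that chose the genes and are a description. The highest mean lay at 48 h for 364 of the higher genes (47.6%, against 23.5% of all genes tested). It lay at 24 h for 154 (20.1%, against 11.6%), at 12 h for 55 (7.19%, against 5.25%) and at 0 h for 163 (21.3%, against 24.6%). The lowest mean lay at 48 h for 349 of the lower genes (56.5%, against 18.8% of all). It lay at 24 h for 86 (13.9%, against 7.13%) and at 12 h for 47 (7.61%, against 5.85%). These times too depend on the 6 h and 12 h sums that chose the genes. At 0, 2, 6, 12, 24 and 48 h, the higher genes held 2.20%, 1.76%, 1.80%, 2.76%, 3.50% and 4.35% of all counts, and the lower genes held 7.75%, 8.84%, 8.02%, 6.24%, 5.59% and 5.02%.

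**Figure D3:**
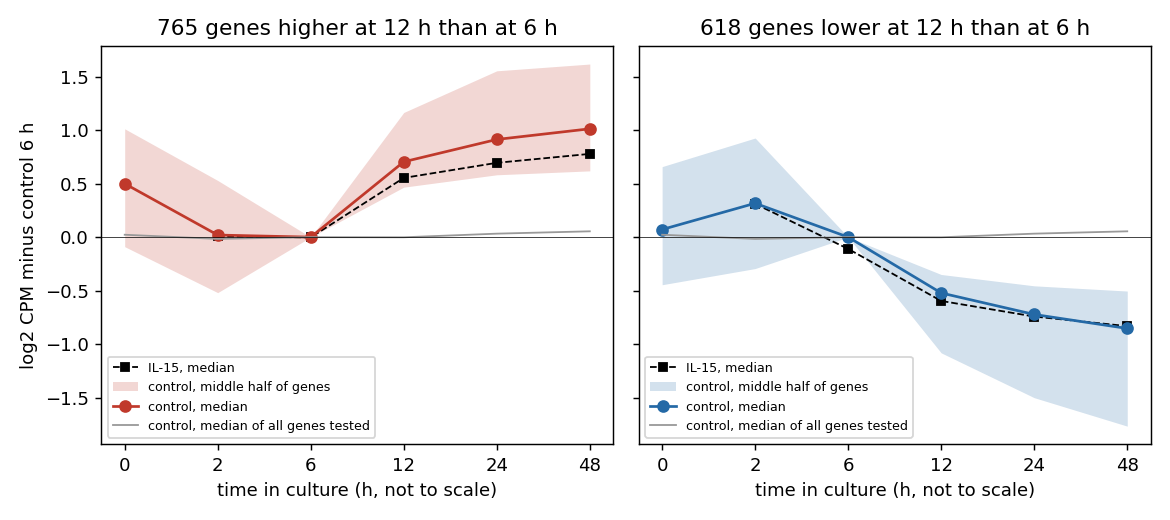
Median log2 level set against control 6 h of the 765 genes higher at 12 h (left) and the 618 genes lower at 12 h (right) by time, in IL-15 cultures (black squares) and control cultures (coloured circles, with the interquartile range of the genes shaded); the grey line is the median of all genes tested. The higher genes start at 0.50 at 0 h, lie near 0 at 2 and 6 h and reach 1.01 at 48 h in control culture.

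Cells cultured with IL-15 shared part of this change, in libraries that come from the same animals but are none of the control libraries. With IL-15, 1780 genes (9.78%) rose and 1356 (7.45%) fell at 12 h against 6 h. Of the 765 genes that rose in control culture, 438 also rose with IL-15, or 57.3% of the control list and 24.6% of the IL-15 list, and 1 fell. Of the 618 genes that fell in control culture, 365 also fell with IL-15, or 59.1% of the control list and 26.9% of the IL-15 list, and 4 rose. The higher genes of the control list had a median log2 change of 0.51 with IL-15, and 94.6% were positive. The lower genes of that list had a median of -0.43, and 92.9% were negative. Over all genes tested, the median with IL-15 was -0.0054, with 49.3% positive and 50.7% negative. Without animal 38142, 694 genes rose and 561 fell with IL-15, and without 38155, 1037 rose and 640 fell. Without 38147, 1722 rose and 1367 fell, and without 38157, 1201 rose and 1047 fell. When animals, the gene table or the scaling were changed, the shares found again with IL-15 ran from 48.9% to 64.8% for the higher genes. For the lower genes they ran from 57.8% to 69.1%. Of all genes tested in those fits, 3.80% to 10.03% rose and 3.07% to 8.95% fell with IL-15.

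The share of all counts held by the 765 higher genes was 2.67% ± 0.2995 at 12 h with IL-15 and 1.84% ± 0.204 at 6 h with IL-15 (SD, n = 4 animals). The share held by the 618 lower genes was 5.73% ± 0.428 at 12 h with IL-15 and 7.39% ± 0.652 at 6 h with IL-15. At 24 and 48 h the higher genes took 2.99% and 3.45% with IL-15, against 3.50% and 4.35% in control culture. The size of the whole step can be set side by side. The root mean square log2 change was 0.492 ± 0.0565 with IL-15 and 0.376 ± 0.017 in control culture, higher with IL-15 in 4 of 4 animals. The exact sign-flip permutation test over animals gave a two-sided p of 0.125, the smallest that this test can give with 4 pairs.

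The difference between the 2 treatments was also tested gene by gene. The change at 12 h over 6 h was more positive with IL-15 for 14 genes (0.0769%) and more negative for 4 (0.022%), with log2 differences of 0.68 to 2.16 and of -0.74 to -2.05. Of these 18 genes, 3 had fallen and 2 had risen in control culture, and 13 were not called there. Over all genes tested, 3.4% fell and 4.2% rose in control culture. The difference subtracts that same control change, so these counts are a description. The 3 that fell are among the 14 genes, and the 2 that rose are among the 4. The count of 18 depended on the fit and on single animals. It was 0 without animal 38142 (1093 genes at an unadjusted p under 0.05 by edgeR), 7 without 38147, 23 without 38155 and 6 without 38157. By limma on the differences within animals it was 1541. For most genes the fit used here therefore gives no call either way on whether IL-15 altered the step, which does not show that the step was alike.

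**Figure D4:**
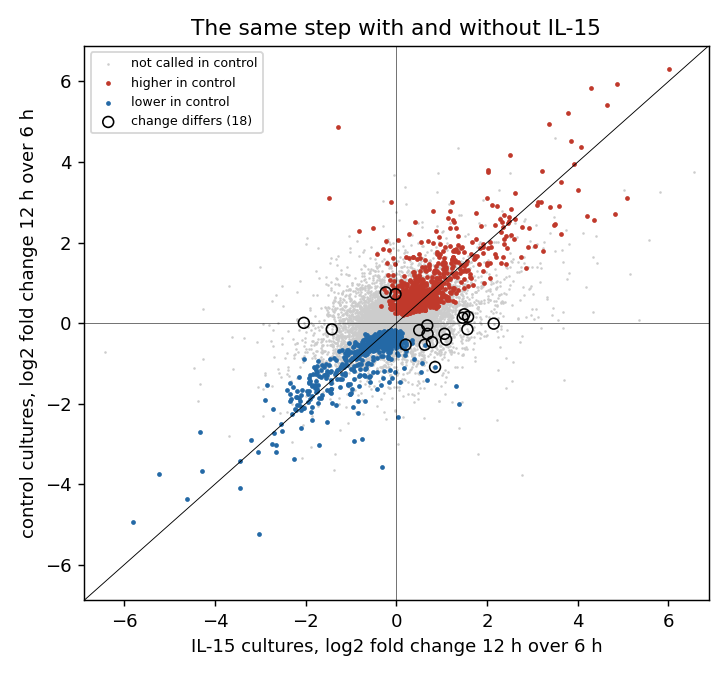
Log2 fold change at 12 h over 6 h in IL-15 cultures (horizontal axis) against control cultures (vertical axis), 1 point a gene, with the line of equal change. Genes higher (red) and lower (blue) in control culture lie mostly on the same side of 0 with IL-15 (94.6% and 92.9%). Of all genes tested, 49.3% were positive and 50.7% negative with IL-15. Circles mark the 18 genes whose change differed.

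By the rule for naming genes, 439 of the higher and 475 of the lower genes had at least 5 CPM in their higher group and the same direction in 4 of 4 animals. The 2 IDs with the largest change in each direction are given below, and nothing in the tables says what they encode. The rule fixed in advance that these IDs were called and changed in the same direction in 4 of 4 animals. Values are in CPM for animals 38142, 38147, 38155 and 38157 in turn.

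ENSMFAG00000000151 had 17.2, 27.4, 6.31 and 6.999 CPM at 12 h, against 0.414, 1.53, 0.538 and 0.592 CPM at 6 h. All 4 animals were higher at 12 h, and the lowest value at 12 h was above the highest at 6 h. The log2 fold change was 4.18 ± 0.60 (SE), with an adjusted p of 2.1e-05 by edgeR's quasi-likelihood test. The mean in control culture was 1.26 CPM at 0 h and 0.438 CPM at 2 h. It was 14.5 ± 9.95 CPM at 12 h, against 0.768 ± 0.512 CPM at 6 h (SD, n = 4 animals). Later it was 73.02 ± 61.5 CPM at 24 h and 214 ± 164 CPM at 48 h. The rise at 24 h against 12 h passed the test (adjusted p = 0.0075 by edgeR), and that at 48 h against 24 h did not (adjusted p = 0.065), with a wide spread between animals. With IL-15 it averaged 4.49 ± 5.06 CPM at 12 h and 0.634 ± 0.388 CPM at 6 h. The log2 fold change there was 2.51 ± 0.63 (adjusted p = 0.0054 by edgeR). The difference of both changes, IL-15 minus control, was -1.67 ± 0.87 and did not pass the test (adjusted p = 0.48). At 48 h the mean was 34.6 ± 30.7 CPM with IL-15.

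ENSMFAG00000042658 had 200.4, 47.2, 28.96 and 106.04 CPM at 12 h, against 14.2, 2.40, 1.04 and 9.55 CPM at 6 h. The animals kept the same order at both times, and the groups did not overlap. The log2 fold change was 3.94 ± 0.36, with an adjusted p of 5.9e-09 by edgeR's quasi-likelihood test. Its level was low at the start, with means of 0.181 CPM at 0 h and 0.325 CPM at 2 h. At 24 h it ran from 63.96 CPM in 38155 to 308.7 CPM in 38142, and at 48 h it averaged 131.97 ± 43.7 CPM. The change at 12 h over 6 h with IL-15 was 3.92 on the log2 scale (adjusted p = 7e-09 by edgeR). The size of the change in control culture differed among the animals, from 3.47 in 38157 to 4.76 in 38155 (adjusted p = 0.04 for the animal by time term in edgeR).

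ENSMFAG00000035922 had 1.16, 2.31, 0.593 and 0.167 CPM at 12 h, against 34.5, 60.9, 14.8 and 0.389 CPM at 6 h. Animals 38142, 38147 and 38155 were far lower at 12 h, and animal 38157 had little of this RNA at either time, so that the groups overlap. The log2 fold change was -4.38 ± 1.04, with an adjusted p of 0.0069 by edgeR's quasi-likelihood test. In the animals singly it was -4.87, -4.70, -4.59 and -1.11. The animal by time term had an adjusted p of 0.0012 by edgeR. Without animal 38142 the log2 fold change of -4.11 no longer passed (adjusted p = 0.084 by edgeR), nor did that of -4.72 without the term for the animal (adjusted p = 0.26). At 0, 2, 6, 12, 24 and 48 h of control culture the means were 8.70, 52.3, 27.6, 1.06, 3.26 and 13.9 CPM. The level was highest at 2 h in 4 of 4 animals. It was lowest at 12 h only in animal 38147, which held 11.9 CPM at 24 h and 54.4 CPM at 48 h, and the other 3 animals were lower still at 24 or 48 h than at 12 h.

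ENSMFAG00000035791 had 0.453, 0.897, 0.807 and 0.596 CPM at 12 h, against 5.25, 13.7, 3.94 and 9.73 CPM at 6 h. All 4 animals were lower at 12 h, and the highest value at 12 h was below the lowest at 6 h. The log2 fold change was -3.43 ± 0.39, with an adjusted p of 2.6e-07 by edgeR's quasi-likelihood test. At 0, 2, 6, 12, 24 and 48 h its means were 0.0414, 5.02, 8.16, 0.688, 0.356 and 1.01 CPM, a rise and fall within the first 12 h. With IL-15 the log2 change at 12 h over 6 h was -3.45 (adjusted p = 2.5e-07 by edgeR). In control culture the change ran from -3.97 in 38157 to -2.25 in 38155 (adjusted p = 0.04 for the animal by time term in edgeR).

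**Figure D5:**
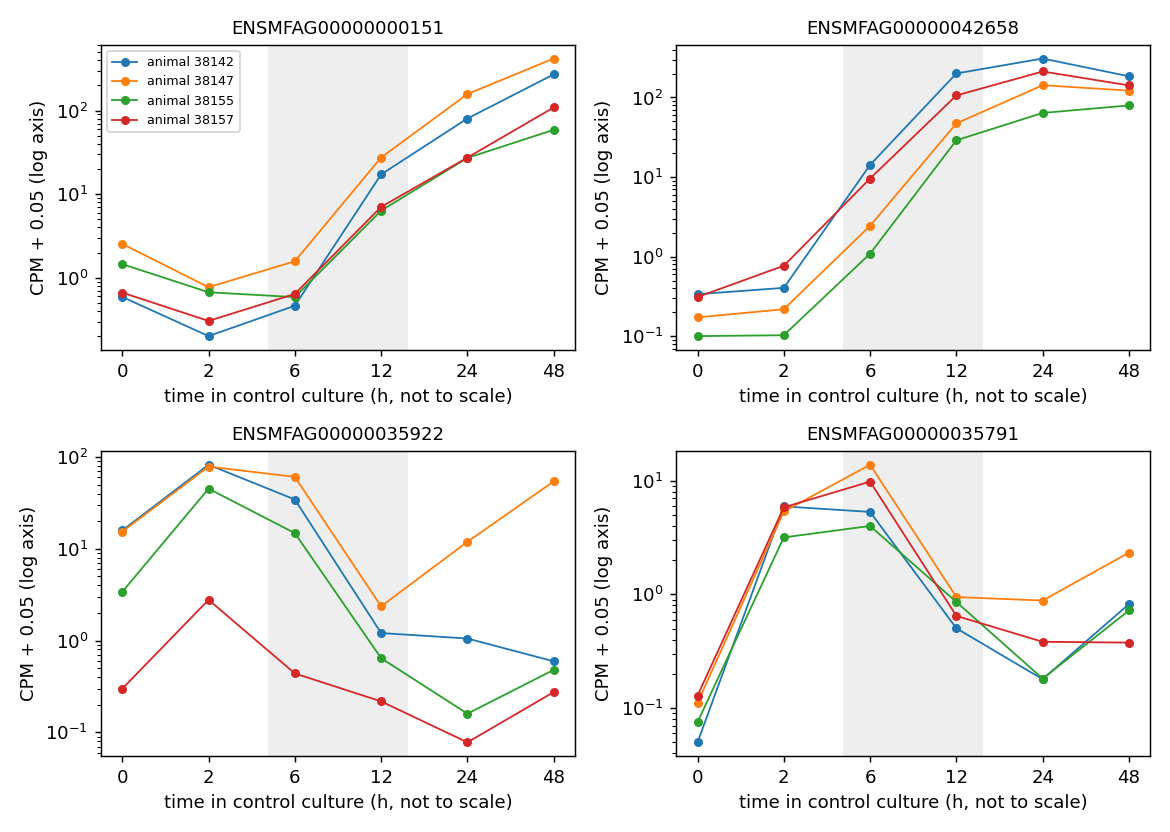
Level of each of the 4 IDs over control culture (CPM + 0.05, log axis), 1 line an animal, with 6 h and 12 h shaded. The upper pair rises across the shaded interval in all 4 animals and the lower pair falls, directions that the rule for naming required. For ENSMFAG00000035922, animal 38157 shows only a small change from a low level.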

How the data were processed

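Libraries of mRNA were made with a KAPA mRNA HyperPrep kit from RNA isolated with Qiagen RNeasy, per the labels' protocols. The authors deposited raw counts per gene in a table of 38550 cynomolgus IDs and one of 35432 rhesus IDs. The aligner, counter and genome build were not given in the sources used here, nor was the use of strand, so reads shared by overlapping or near-identical genes are uncertain. Counts of the 3 libraries of each animal and group were summed (44 sums), since animals are the replicates. Genes were filtered with filterByExpr, scaled by TMM and tested with edgeR 4.0.16 in R 4.3.3 (robust quasi-likelihood, all 11 groups in 1 fit, a term for the animal, Benjamini-Hochberg adjustment over 18197 genes). Log2 levels of single sums and libraries used a prior count of 2, as did results built on them. Among these are the time courses set against 6 h, the times of the highest and lowest mean, and limma on differences within animals. The fold changes of the edgeR fit did not use it. Standard errors were taken from the fold change and its F value. Limma 3.58.1 and DESeq2 1.42.0 served as alternatives, and the scripts were tested on simulated data. The sums hold at least 69264286 counts, and counting error covers only part of the spread.

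The pairing comes from the animal in the labels: both sums of an animal deviated together (r of 0.849 to 0.913 in 4 of 4 animals). The genes named are the 2 IDs with the largest rise and the 2 with the largest fall (log2 fold change) among called genes with the same sign in 4 of 4 animals and at least 5 CPM in the higher group. The comparison, its tests and 34 gene lists were chosen with earlier results of these data known. The lists hold symbols and could not be run on these IDs.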

Additional observations from a re-analysis of the deposited data

Results flagged for a closer look

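In groups of 4 animals, a value far from the other 3 was found in 2 of 17 groups tested, where chance gives about 1 in 20, or 0.85 here. The first was ENSMFAG00000000151 at 6 h of control culture, where animal 38147 had 1.53 CPM and the others had 0.414 to 0.592 CPM. The same animal had the highest level at 12 h, 27.4 CPM.

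The second was the change of ENSMFAG00000035922 at 12 h over 6 h of control culture, which was -1.11 on the log2 scale in animal 38157 and -4.59 to -4.87 in the others. That animal started from 0.389 CPM at 6 h, and with IL-15 its change was 0.31.

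The change at 12 h over 6 h differed between IL-15 and control cultures for 14 genes that were more positive and 4 that were more negative with IL-15, by edgeR's test of the difference itself.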

How the results depend on the processing

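Of the 1383 genes called at 12 h against 6 h of control culture, none changed sign where tested under an alternative run on the cynomolgus IDs. The alternatives reuse the libraries that chose these genes, so the kept signs were close to fixed. Of the genes tested in each fit, the share called again ran from 9.04% without the animal term to 99.9% with libraries singly. Within the Lib1 GL75 libraries it was 39.2%. RLE scaling (767 higher, 634 lower), no filter (559, 440), the rhesus table (771, 651), DESeq2 (939, 797), and leaving out the libraries that stand apart (799, 654) or, chosen after seeing the data, the deepest library (739, 632) kept the counts within 1.5 times. The counts of 765 higher and 618 lower genes became 1216 and 1274 by limma on differences within animals, 1290 and 1263 with only the groups compared in the fit, 1924 and 1991 with libraries singly, 1941 and 2033 with a term for the tokens, and 331 and 344 with only Lib1 GL75 libraries, a choice made after seeing the data. At 5 CPM or more, 585 genes were higher (61.4% of calls) and 367 lower. From mean library CPM with limma, 1075 genes were higher (77.4%) and 313 lower. The cause was not tested. With the replicate number as a block on single libraries, 1932 genes were higher and 1980 lower; same-numbered libraries of both times did not deviate together (median r -0.0092), so the number pairs nothing. With no block for the animal, the counts were 80 and 45 (844 and 758 at an unadjusted p under 0.05). Leaving out each animal in turn gave 354 to 441 higher and 237 to 377 lower genes, with 3 pairs in place of 4.

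The 18 genes whose change differed with IL-15 became 1541 by limma, 31 at 5 CPM or more, 294 with only the groups compared, 1747 with libraries singly, 1768 with the replicate number as a block, 1713 with the tokens, 156 by DESeq2, 41 without libraries that stand apart, 30 without the deepest library, 0 without the animal block (706 at an unadjusted p under 0.05 by edgeR) and 0 to 23 with an animal left out. In IL-15 cultures, leaving out an animal gave 694 to 1722 higher and 561 to 1367 lower genes. With an animal left out, control culture gave 256 to 481 calls at 24 h against 12 h and 188 to 600 at 48 h against 24 h.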
